A study of Homo sapiens with 4 samples.

Results

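Genes of the hypoxia response and of glycolysis were described in HCT116 cells after knockdown of TET1. The list holds 50 genes, and its members were taken by gene symbol: every probe set whose single annotated gene is on the list was used. Of the 50, 47 have such a probe set, out of 19775 genes in the whole table, and together they have 113 probe sets beside 3 control probe sets for GAPDH. Expression of CA9, SLC16A1 and SLC16A3 was not analysed here. HCT116 is an established human colorectal cancer cell line, and the product of TET1 is an enzyme that converts the methyl mark on cytosine to oxidised forms. Cells of both groups were transfected with siRNA with the same reagent (Lipofectamin RNAiMAX, as the labels spell it), TET1 siRNA in 2 samples and control siRNA in 2 samples, and total RNA of each sample was hybridised to 1 Affymetrix array. The labels give 1 TET1 siRNA group, so an effect of TET1 loss and an effect of the siRNA itself cannot be told apart. They name no low-oxygen treatment and no batch, and the knockdown is transient, in a line with its own fixed mutations.

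Hypoxia-inducible factor (HIF) is a transcription factor made of an oxygen-regulated alpha subunit, HIF-1 alpha or HIF-2 alpha, and the constant partner ARNT. In oxygen, prolyl hydroxylases mark the alpha subunit, the VHL ubiquitin ligase binds the mark, and the protein is degraded, so HIF activity is set mostly at the level of protein and not of HIF1A mRNA. When oxygen is short, HIF binds a short DNA core in its target genes and raises glucose transporters, glycolytic enzymes, regulators that keep pyruvate out of mitochondria, mitophagy receptors, angiogenic factors and collagen-modifying enzymes. Many cancer cells, colorectal ones included, run glycolysis at a high rate in oxygen as well.

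The HIF core motif is ACGTG or GCGTG, and its reverse complements are CACGT and CACGC. It was searched on both strands in the 250 bases before each RefSeq transcription start (GRCh38.p14), with overlapping matches counted as 1 site, so that CACGTG is 1 site. The windows printed here belong to members with different outcomes. BNIP3, PDK1 and ADM were lower, ANGPTL4 was higher, PGK1 gave different answers by different probe sets, and LDHA did not pass the test. Each is printed 5′ to 3′ on the strand of its gene, with the matches in capitals.
BNIP3, chr10:131981924-131982173, minus strand: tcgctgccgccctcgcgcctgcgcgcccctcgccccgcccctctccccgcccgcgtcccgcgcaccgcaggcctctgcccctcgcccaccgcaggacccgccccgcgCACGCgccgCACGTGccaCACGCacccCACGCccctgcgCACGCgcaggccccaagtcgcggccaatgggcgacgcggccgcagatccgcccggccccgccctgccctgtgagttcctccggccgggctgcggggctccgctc
PDK1, chr2:172555840-172556089, plus strand: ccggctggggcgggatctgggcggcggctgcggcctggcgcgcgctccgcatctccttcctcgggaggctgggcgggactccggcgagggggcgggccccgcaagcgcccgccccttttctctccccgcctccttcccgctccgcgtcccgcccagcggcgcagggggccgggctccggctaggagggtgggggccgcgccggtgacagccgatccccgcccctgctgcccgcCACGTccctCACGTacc
ADM, chr11:10304823-10305072, plus strand: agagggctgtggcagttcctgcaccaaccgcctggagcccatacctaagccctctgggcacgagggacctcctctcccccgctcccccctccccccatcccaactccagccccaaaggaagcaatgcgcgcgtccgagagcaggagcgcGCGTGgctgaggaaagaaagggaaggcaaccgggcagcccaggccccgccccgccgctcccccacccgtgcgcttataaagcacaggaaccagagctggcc
ANGPTL4, chr19:8363905-8364154, plus strand: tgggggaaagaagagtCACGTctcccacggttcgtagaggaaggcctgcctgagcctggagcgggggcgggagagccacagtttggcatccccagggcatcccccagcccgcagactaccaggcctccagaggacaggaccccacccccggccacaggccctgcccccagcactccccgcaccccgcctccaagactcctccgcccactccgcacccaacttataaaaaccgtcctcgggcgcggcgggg
PGK1, chrX:78103998-78104247, plus strand: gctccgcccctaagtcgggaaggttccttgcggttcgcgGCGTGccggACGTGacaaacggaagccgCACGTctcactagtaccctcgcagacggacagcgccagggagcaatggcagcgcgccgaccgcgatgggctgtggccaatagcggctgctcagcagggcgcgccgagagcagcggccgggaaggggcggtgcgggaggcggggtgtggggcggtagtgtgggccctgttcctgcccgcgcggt
LDHA, chr11:18394313-18394562, plus strand: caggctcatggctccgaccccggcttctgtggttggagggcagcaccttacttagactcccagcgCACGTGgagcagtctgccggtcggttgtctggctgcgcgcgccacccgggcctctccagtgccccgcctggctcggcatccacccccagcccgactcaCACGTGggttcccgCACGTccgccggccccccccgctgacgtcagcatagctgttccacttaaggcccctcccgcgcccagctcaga
The BNIP3 window held 5 sites, the LDHA and PGK1 windows 3 each, that of PDK1 2, and those of ADM and ANGPTL4 1 each. PDK1 has a further window with no match and LDHA a further one with 1 site, and for both the window with more matches was printed. RefSeq windows were found for 44 members, CA9 and SLC16A3 included, of which 36 (81.8%) held a match in at least 1 window. The same was found for 64.4% of the 10106 tested genes with a window and for 47.4% of all 27305 genes with one. The share was 17 of 18 for HIF targets, the untested CA9 and LOX included, and 14 of 17 for core glycolytic enzymes. A gene with more windows has more places for a match. Counted by window, 87.5% of 24 windows of HIF targets and 51.4% of 37 windows of core glycolytic enzymes held a match. The share was 54.2% of the windows of tested genes, so by window the enzymes were not above it. By gene, the share among HIF targets was 6 of 7 for those that were lower and 8 of 8 for those tested that did not pass. BNIP3L, which was lower, and NDRG1 and VEGFA, which did not pass, had no window and are not in these counts. With a match in 17 of 18 targets, its presence could not separate the outcomes. A match is a run of letters, and binding was not measured.

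Each array gave 1 signal per probe set, in arbitrary units on a linear scale, and all arrays had a common trimmed mean of 100.01. Differences are given on the log2(signal + 16) scale, TET1 siRNA minus control siRNA, which understates the change of dim genes. A gene was read by its brightest probe set and tested with limma across 12389 genes, and a gene was called higher or lower at a Benjamini-Hochberg adjusted p below 0.05. The 2 samples of a group are biological duplicates according to the series' design. The arrays correlated at Pearson's r = 0.991 within TET1 siRNA, 0.9899 within control siRNA and 0.9757 to 0.9775 between the groups, across genes, which are not independent replicates. TET1 itself read 14.6 and 15 on the TET1 siRNA arrays against 58.1 and 59.6 on the control siRNA arrays, a log2 difference of -1.28 (SE 0.20, limma adjusted p = 9.28e-04). The TET1 siRNA values lie close to the filter signal of 13.1. The second probe set of TET1 read 6 and 8.9 against 18.2 and 35.5 and did not pass when tested by itself (-0.84, limma adjusted p = 0.0509). Of 11 epithelial markers 8 lay above the filter. EPCAM, KRT8, KRT18 and KRT19 were bright, with group means of 3084 to 7423 with TET1 siRNA and 2460 to 6668 with control siRNA. The intestinal markers CDH17, CDX2 and LGALS4 lay below the filter. KRT8 was higher with TET1 siRNA (0.32) and CDH1 was lower (-1.16). The summed signal of 9 fibroblast markers was 409 and 522.5 with TET1 siRNA and 366.2 and 338.6 with control siRNA, most of it COL1A1, which rose by 0.47. The sums were 37.6 and 25.3 with TET1 siRNA and 37.9 and 54.9 with control siRNA for 6 endothelial markers, and 62.2 and 65.8 against 40.2 and 72.7 for 7 lymphocyte and myeloid markers. The part of other cells in any result below was not tested.

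Among the members, which were chosen with earlier results of these data known, HIF targets were more often lower than higher after TET1 siRNA. Core glycolytic enzymes mostly did not pass the test. Further HIF targets outside the members, given below, were as often lower as higher (9.52% of 42 tested each). Of the 47 members with a probe set, 45 lay above the filter and were tested. EGLN2 (0.9 and 1.4 with TET1 siRNA, 1 and 0.5 with control siRNA) and LOX (0.8 and 1.9 against 3.2 and 11.3) lay below it. EGLN2, a prolyl hydroxylase of HIF, is also read by probe sets annotated to it together with RAB4B-EGLN2, which were not counted as members. The brighter of these gave 65.1 and 42.4 with TET1 siRNA and 62.5 and 79.9 with control siRNA, and the other, also annotated to RAB4B, 32.1 and 26.4 against 14.5 and 54.6. Both were above the filter, their groups overlapped, and neither passed (limma adjusted p = 0.301 and 0.957). Of the 45, 11 were lower (24.4%) and 2 were higher (4.44%), while 32 did not pass. Over all genes tested, 10.6% were lower and 11.2% higher. The median log2 difference of the members was -0.12, against 0.01 for all genes tested, and 34 of the 45 differences were below 0, as were 48.8% of those of all genes. Both TET1 siRNA arrays lay below both control siRNA arrays in 25 members and above both in 5, where 28.1% and 30.9% of all genes tested did so. The 11 lower members were BNIP3L, PDK1, PFKFB4, MXI1, ENO2, BNIP3, SLC2A3, P4HA2, ADM, PLOD1 and GPI, and the 2 higher ones were ANGPTL4 and EPAS1. Only BNIP3L and PDK1 fell by 1.5-fold or more on this scale, and only ANGPTL4 rose by as much. The counts rest on single arrays in part: 8, 6, 9 and 4 members were lower without control siRNA replicate 1, control siRNA replicate 2, TET1 siRNA replicate 1 and TET1 siRNA replicate 2, in this order, and 1 was higher in each case.

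**Figure D1:**
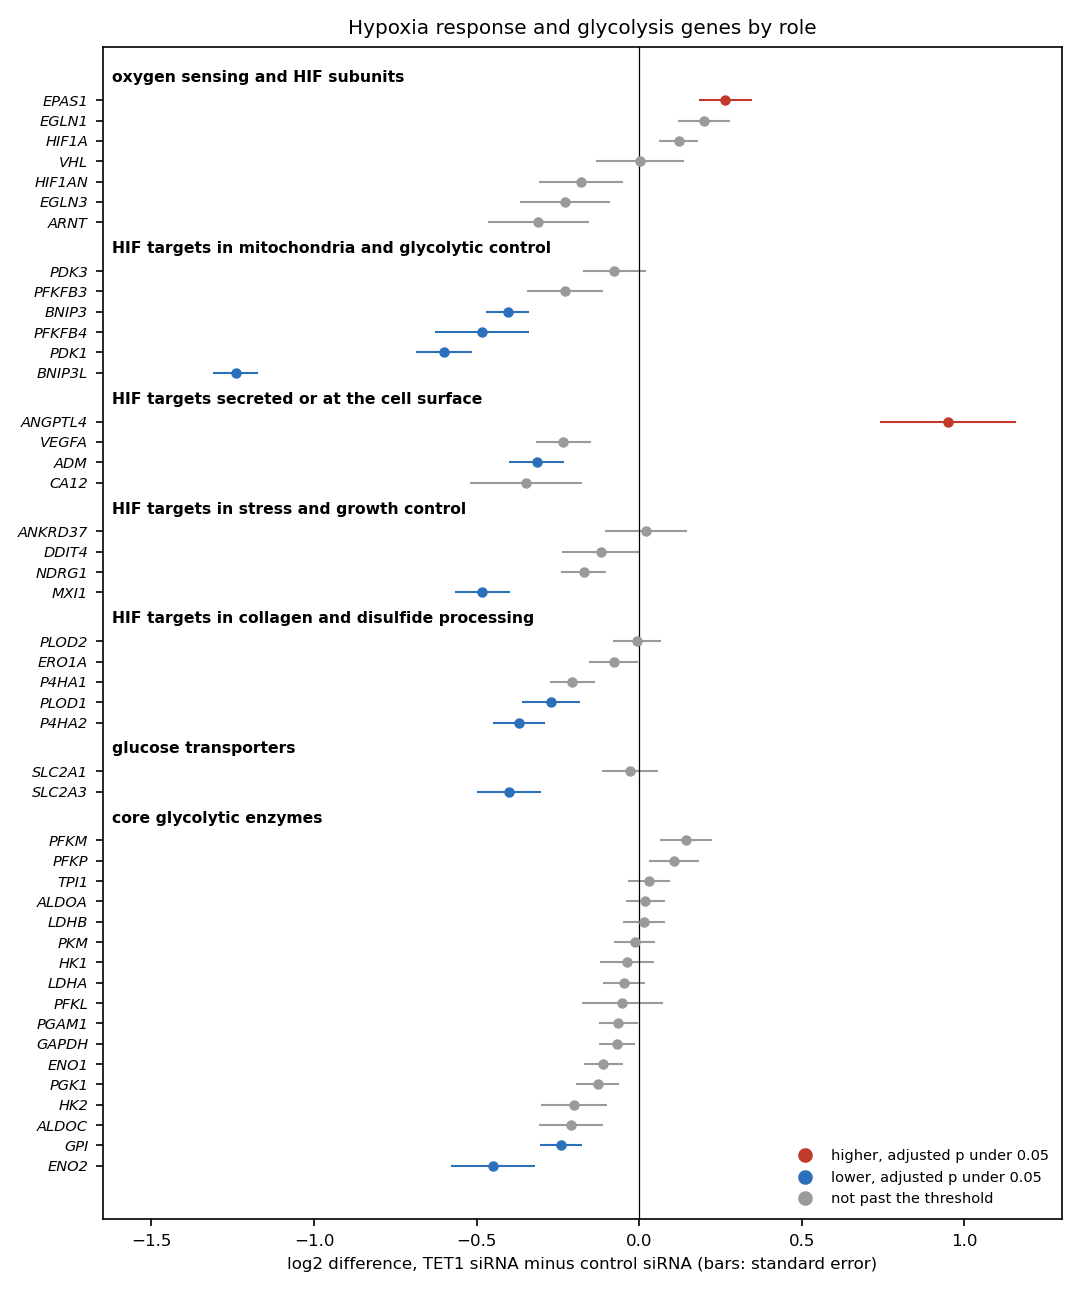
Log2 difference of each of the 45 tested members, TET1 siRNA minus control siRNA (2 arrays each), by role; bars are limma standard errors and colours mark the call. The points for HIF targets lie mostly left of 0, with ANGPTL4 far to the right, and those of the core glycolytic enzymes lie between -0.45 and 0.14.

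The oxygen-sensing machinery showed small differences. EPAS1, which encodes HIF-2 alpha, read 745.4 and 812.9 with TET1 siRNA and 630.5 and 660.2 with control siRNA. It rose by 0.26 (SE 0.081, limma adjusted p = 0.0376), but the call did not hold when any 1 array was left out (0.20 to 0.33, limma adjusted p 0.0575 to 0.233), and with the mean of its probe sets it was 0.07 (limma adjusted p = 0.731). Its dimmer probe set gave 40.1 and 52.9 against 48.3 and 44.9, which overlap. HIF1A, which encodes HIF-1 alpha, had 3385.8 and 3409.5 with TET1 siRNA and 3151.2 and 3095.4 with control siRNA. These groups did not overlap, and the difference of 0.12 did not pass (limma adjusted p = 0.183). ARNT, the constant partner of both, read 76.7 and 98.6 against 103.9 and 120.3 (-0.31, limma adjusted p = 0.188). EGLN1, the main prolyl hydroxylase of HIF in most cells, read 910.6 and 932.1 with TET1 siRNA and 757.7 and 845.5 with control siRNA (0.20, limma adjusted p = 0.102). EGLN3, a hydroxylase that HIF itself induces, read 108.2 and 92.6 against 122.4 and 117.8 (-0.23, limma adjusted p = 0.28). VHL, the recognition subunit of the ubiquitin ligase, had 100.9 and 106.4 against 104.5 and 102.3, and its groups overlapped. HIF1AN, an asparaginyl hydroxylase that blocks coactivator binding, also overlapped (199.7 and 227.7 against 215.5 and 275). Its dimmer probe sets lay the other way, with both TET1 siRNA arrays above both control arrays, and did not pass. Of the 7 sensing genes tested with limma 1 rose and none fell, where 11.2% and 10.6% of all genes tested did so. None was lower at an unadjusted limma p below 0.05 either.

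HIF targets that act on mitochondria and on glycolytic flux were the members that were lower most often, 4 of 6 tested, against 10.6% of all genes tested. BNIP3L and BNIP3 encode related outer-membrane receptors that recruit mitochondria for mitophagy. BNIP3L signals were 837.8 and 870.6 with TET1 siRNA and 2076 and 2006.7 with control siRNA, which left 41.8% of the control mean. It fell by 1.24 (SE 0.069, limma adjusted p = 1.29e-06), more than any other member. Its other probe set also fell, by less: 904.1 and 862.2 against 1203.5 and 1272 (-0.48, limma adjusted p = 0.0016 tested by itself). BNIP3 read 1904.5 and 1815.2 with TET1 siRNA and 2511.9 and 2421.4 with control siRNA, and fell by 0.40 (SE 0.065, limma adjusted p = 0.00116). Its second probe set, 889 and 808.8 against 921.5 and 959.1, did not pass (-0.15, limma adjusted p = 0.258). No array of one group reached the range of the other for either gene.

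PDK1 encodes a kinase that switches off pyruvate dehydrogenase and so holds pyruvate back from the mitochondrion. It read 372.2 and 396.2 with TET1 siRNA and 601.6 and 580.7 with control siRNA and fell by 0.60 (SE 0.086, limma adjusted p = 5.26e-04). The second probe set of PDK1 above the filter read 106.3 and 74.1 against 134.2 and 145.9 and fell by 0.57 (limma adjusted p = 0.036). The sister kinase gene PDK3 overlapped between the groups, with 358.6 and 393.3 against 418.2 and 376.8 (-0.08, limma adjusted p = 0.642). PFKFB3 and PFKFB4 encode enzymes that set fructose 2,6-bisphosphate, an activator of phosphofructokinase. PFKFB4 read 167.1 and 181 with TET1 siRNA and 210.6 and 295.5 with control siRNA and fell by 0.48 (SE 0.15, limma adjusted p = 0.0336). Its control arrays stood apart from each other, and without control siRNA replicate 2 the difference was -0.25 (limma adjusted p = 0.26). It did not pass either without TET1 siRNA replicate 1 (-0.43, limma adjusted p = 0.143) or replicate 2 (-0.54, limma adjusted p = 0.0723). The second, dim probe set of PFKFB4 overlapped, with 6.4 and 29.7 against 23.9 and 29.4 (-0.41, limma adjusted p = 0.427). PFKFB3 had 212.6 and 262.1 against 269.1 and 290.1, lower on both arrays and not past the threshold (-0.23, limma adjusted p = 0.199).

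**Figure D2:**
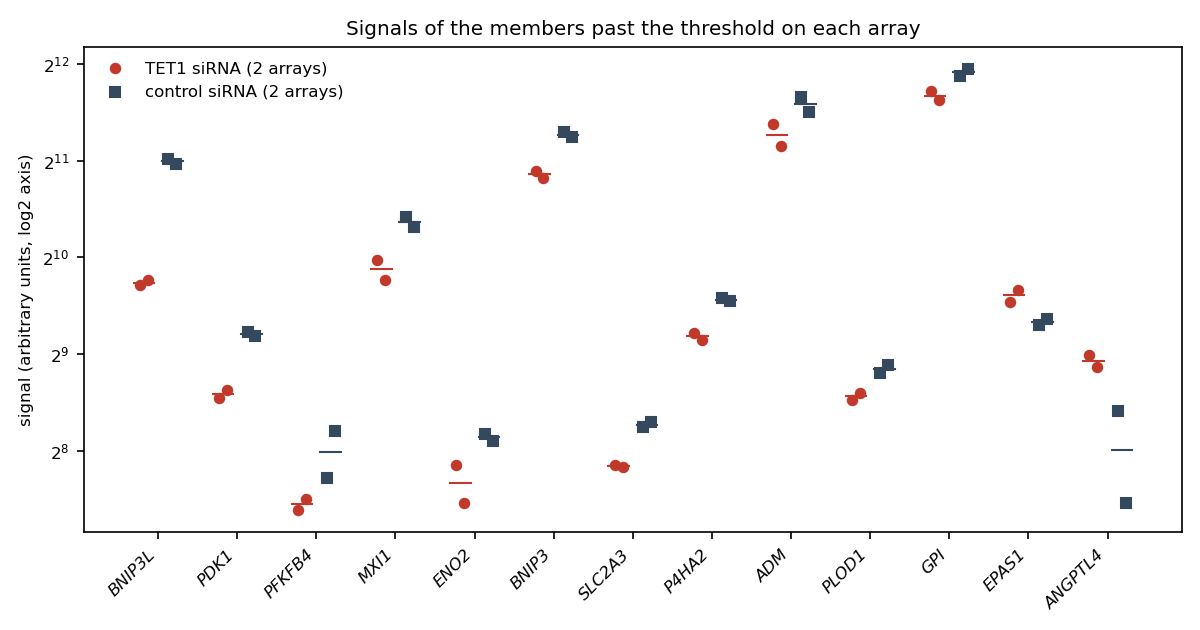
Signal of the 13 members past the threshold on every array, on a log2 axis, with TET1 siRNA (red circles) left of control siRNA (dark squares) and group means as lines; levels of different genes come from different probes and are not comparable. The groups do not overlap in any of the 13, and ANGPTL4 and PFKFB4 have the widest spread between control arrays.

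Among secreted and surface products 1 of 4 tested members rose and 1 fell, where 11.2% and 10.6% of all genes tested did so. ANGPTL4 encodes a secreted inhibitor of lipoprotein lipase that both HIF and PPAR receptors induce. It read 509.3 and 467.8 with TET1 siRNA and 339.5 and 175.5 with control siRNA, and rose by 0.95 (SE 0.21, limma adjusted p = 0.00748). The control arrays differed by nearly as much as the groups did. Without control siRNA replicate 2 the rise was 0.50, and without control siRNA replicate 1 it was 1.40, and it passed in both cases. Its second probe set read 211.6 and 240.3 against 185.3 and 132.4 (0.48, limma adjusted p = 0.0507). ADM encodes adrenomedullin, a vasodilator peptide. It read 2660.5 and 2269.4 with TET1 siRNA and 3229.6 and 2903.6 with control siRNA and fell by 0.32 (SE 0.084, limma adjusted p = 0.0191). The call was lost without control siRNA replicate 1 (-0.24, limma adjusted p = 0.114) and without TET1 siRNA replicate 2 (-0.20, limma adjusted p = 0.199). It was also lost with median centring (-0.28, limma adjusted p = 0.0656). VEGFA, the main angiogenic growth factor, read 486.8 and 467.5 against 580.3 and 547.2. The groups were apart, and the difference missed the threshold (-0.23, limma adjusted p = 0.071). CA12, a surface carbonic anhydrase, read 51.1 and 57.6 against 65.5 and 82.2 (-0.35, limma adjusted p = 0.18). A dim probe set of CA12 read 1.1 and 1.6 against 17.3 and 19.8, and it lay below the filter and was not tested.

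Of the targets in stress and growth control 1 of 4 fell, against 10.6% of all genes tested. MXI1, a MAX partner that opposes MYC, read 1007.4 and 873.1 with TET1 siRNA and 1364.6 and 1271.3 with control siRNA and fell by 0.48 (SE 0.084, limma adjusted p = 0.00182). NDRG1, a classical hypoxia marker, read 2531.4 and 2268.5 against 2704.2 and 2696.7 (-0.17, limma adjusted p = 0.105). DDIT4, an inhibitor of mTORC1 signalling, stood at 2909.5 and 2069.8 with TET1 siRNA and 2671.2 and 2658.4 with control siRNA. ANKRD37 behaved in the same manner, with 2845.2 and 2013.7 against 2495.8 and 2231.7. For both genes the first TET1 siRNA array lay above the control arrays and the second below them, so their means hide a spread between replicates larger than the group difference. DDIT4 was lower without TET1 siRNA replicate 1 (-0.36, limma adjusted p = 0.0184).

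Collagen-modifying and disulfide-forming enzymes had 2 lower members of 5 tested, against 10.6% of all genes tested. P4HA2, a collagen prolyl 4-hydroxylase subunit, read 596.6 and 565.5 with TET1 siRNA and 763.5 and 747.3 with control siRNA and fell by 0.37 (SE 0.079, limma adjusted p = 0.00624). Without TET1 siRNA replicate 2 it was at -0.33 (limma adjusted p = 0.0516). Its second probe set fell by 0.68 (56.6 and 66.3 against 108.2 and 107.7, limma adjusted p = 0.0105). PLOD1, a collagen lysyl hydroxylase, read 368.3 and 387.9 against 448.1 and 471.7 and fell by 0.27 (SE 0.089, limma adjusted p = 0.0486). That call sits at the threshold and was lost whichever array was left out (-0.31 to -0.24, limma adjusted p 0.0833 to 0.211), and with median centring (-0.24, limma adjusted p = 0.101). P4HA1, the other collagen hydroxylase subunit, missed the threshold with groups apart: 1522.4 and 1456.6 against 1762.2 and 1678.6 (-0.21, limma adjusted p = 0.0517). PLOD2 overlapped, with 910.1 and 920.9 against 937.8 and 901.6. ERO1A, an oxidase of the endoplasmic reticulum, read 775 and 747.3 against 800.2 and 808.6 by its brightest probe set (-0.08, limma adjusted p = 0.523).

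The glucose transporters GLUT1 and GLUT3 are encoded by SLC2A1 and SLC2A3. Their transcripts were read, and glucose uptake was not measured. SLC2A1 overlapped between the groups, at 1346.8 and 1270.8 with TET1 siRNA and 1449 and 1227.7 with control siRNA (-0.03, limma adjusted p = 0.866). SLC2A3 read 231.6 and 228.2 against 303.9 and 313.3 and fell by 0.40 (SE 0.099, limma adjusted p = 0.0131). It did not pass without control siRNA replicate 2 (-0.38, limma adjusted p = 0.0658), TET1 siRNA replicate 1 (-0.41, limma adjusted p = 0.0546) or TET1 siRNA replicate 2 (-0.39, limma adjusted p = 0.0656). Tested singly, 1 other probe set of SLC2A3 fell (239 and 196.6 against 278.9 and 337.5, -0.47, limma adjusted p = 0.0286). Another did not pass (230 and 189.8 against 245.2 and 253.7, -0.24, limma adjusted p = 0.207). A further pair of probe sets matches both SLC2A3 and its near-identical neighbour SLC2A14, so some of this signal can come from SLC2A14. They read 256 and 205.8 against 274.2 and 281 and 200.2 and 161.8 against 211.3 and 215.2, and neither passed (limma adjusted p = 0.177 and 0.262).

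Of the 17 core glycolytic enzymes, from hexokinase to lactate dehydrogenase, 2 fell, none rose (none at an unadjusted limma p below 0.05 either) and 15 did not pass (11.8% lower, against 10.6% of all genes tested). GPI, which converts glucose 6-phosphate to fructose 6-phosphate, read 3369.3 and 3159.2 with TET1 siRNA and 3764.9 and 3951.4 with control siRNA and fell by 0.24 (SE 0.064, limma adjusted p = 0.0193). The call was lost without control siRNA replicate 2 (-0.21, limma adjusted p = 0.0864), TET1 siRNA replicate 1 (-0.29, limma adjusted p = 0.0517) and TET1 siRNA replicate 2 (-0.19, limma adjusted p = 0.181). ENO2, the enolase isoform known from neurons, read 231.1 and 176 with TET1 siRNA and 288.8 and 274.4 with control siRNA and fell by 0.45 (SE 0.13, limma adjusted p = 0.0265). It was at -0.27 without TET1 siRNA replicate 2 (limma adjusted p = 0.214), and it did not pass without control siRNA replicate 1 (-0.41, limma adjusted p = 0.109) or replicate 2 (-0.48, limma adjusted p = 0.0708). With every array centred on its median neither GPI (-0.21, limma adjusted p = 0.0554) nor ENO2 (-0.41, limma adjusted p = 0.0588) passed. ENO1, the ubiquitous enolase, read 7779.3 and 7623.3 against 7997.2 and 8657 (-0.11, limma adjusted p = 0.222).

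The remaining enzymes are given along the pathway. HK1 and HK2, the hexokinases that trap glucose, read 502.8 and 487.9 against 514 and 504.1, and 494.1 and 559.3 against 659.9 and 557.6. Of the phosphofructokinase genes, PFKM read 1228.1 and 1272 with TET1 siRNA and 1055.6 and 1207.8 with control siRNA, the one enzyme with both TET1 siRNA arrays above both control arrays (0.14, limma adjusted p = 0.237). PFKL (323.5 and 321 against 386.4 and 289.6) and PFKP (2692 and 2302.9 against 2305.9 and 2318) overlapped. In the aldolase step ALDOA read 6550.7 and 6341.1 against 6159 and 6568.2, while ALDOC, an isoform known from brain, read 871.6 and 705.8 against 945.3 and 875.7 (-0.21, limma adjusted p = 0.161). ALDOC was lower without TET1 siRNA replicate 1 (-0.36, limma adjusted p = 0.0381). TPI1, which interconverts the triose phosphates, overlapped (4151.3 and 4548.2 against 4319.9 and 4192.5). GAPDH, often used as a reference gene, read 10365.5 and 10208.1 with TET1 siRNA and 10602.4 and 10976.5 with control siRNA, a difference of -0.07 (limma adjusted p = 0.429). Its control probe sets for the 3′ end, the middle and the 5′ end had group means of 10492, 10565 and 12042 with TET1 siRNA and 10782, 11021 and 12653 with control siRNA. PGAM1, the phosphoglycerate mutase, read 4669 and 4572 against 4740.9 and 4923.5. PKM, the pyruvate kinase gene, overlapped (3682.9 and 3823.1 against 3936.3 and 3648.2). LDHA and LDHB, whose products interconvert pyruvate and lactate, overlapped as well, with 9894.9 and 9169.6 against 9396.1 and 10303.8 for LDHA and 8077.2 and 7424.4 against 7371.3 and 7963 for LDHB.

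Set side by side, 8 of 19 tested HIF targets were lower (42.1%) and 1 was higher (5.26%). Of the 17 core glycolytic enzymes 2 were lower (11.8%) and none was higher. The shares over all genes tested were 10.6% lower and 11.2% higher, so the enzymes were lower about as often as all genes. The median log2 difference was -0.23 for HIF targets and -0.05 for core glycolytic enzymes, against 0.01 for all genes tested. Both TET1 siRNA arrays lay below both control arrays in 14 of 19 HIF targets and in 8 of 17 enzymes, where 28.1% of all genes did so. The split of members into these groups was made with earlier results known, so the contrast is a description and carries no test. Signal levels differed as well. Control means of GAPDH and LDHA were 10789 and 9850, that of the brightest HIF target, ADM, was 3067, and array maxima were 14897 to 16176. Whether differences are understated at high signals was not tested. By array, the median deviation of HIF targets from the control mean was -0.20 and -0.26 on the TET1 siRNA arrays, and 0.02 and -0.02 on the control siRNA arrays. For core enzymes the same medians were -0.05 and -0.08 on the TET1 siRNA arrays, and -0.0037 and 0.0037 on the control siRNA arrays. The count of lower HIF targets was 4 without TET1 siRNA replicate 2, 7 without TET1 siRNA replicate 1 and 6 without either control array, and the median stayed between -0.26 and -0.20. The count of lower enzymes was 0 without control siRNA replicate 2 or TET1 siRNA replicate 2 (at unadjusted p below 0.05 limma gave 4 and 2), 1 without control siRNA replicate 1 and 2 without TET1 siRNA replicate 1.

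**Figure D3:**
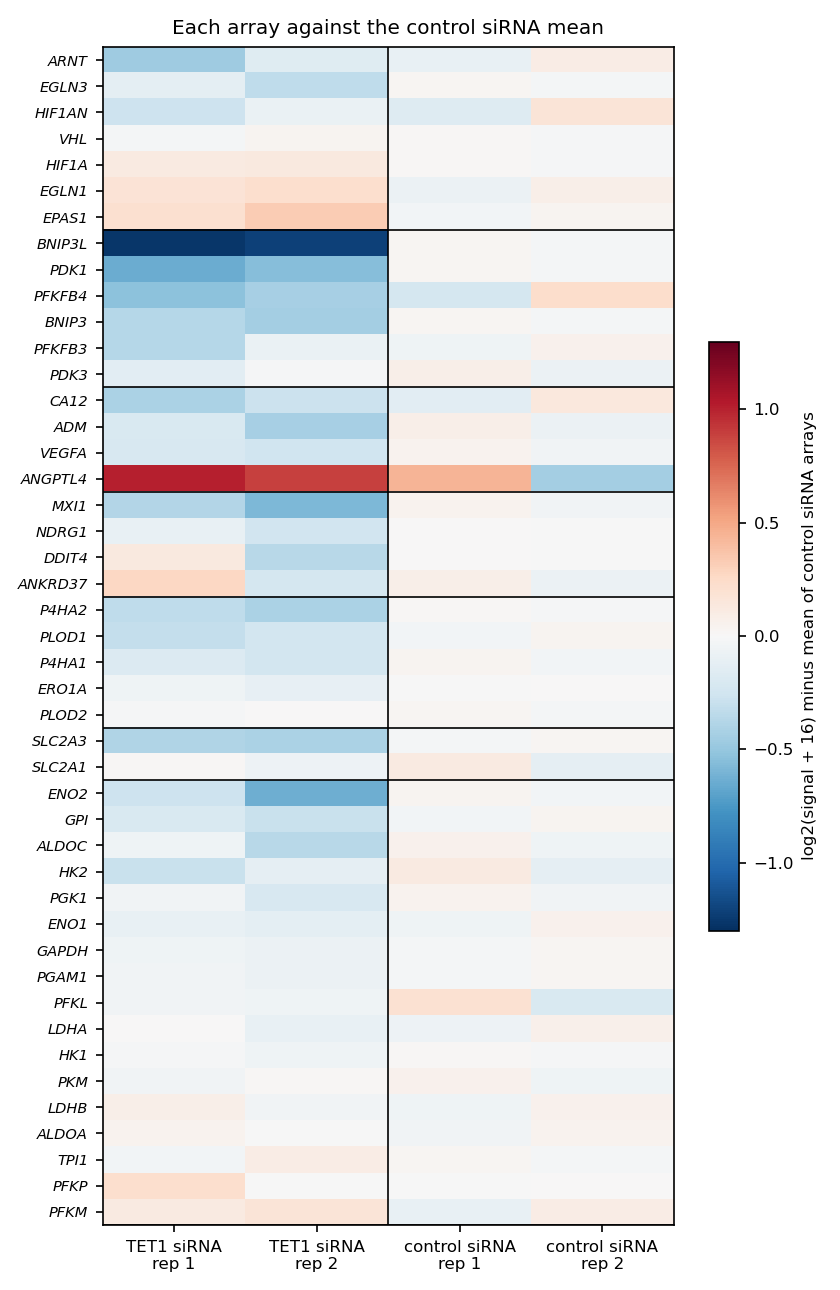
Deviation of each array from the mean of the control siRNA arrays on the log2(signal + 16) scale, for the 45 tested members by role, with TET1 siRNA arrays in the left columns and control siRNA arrays in the right ones. BNIP3L, PDK1, BNIP3 and SLC2A3 are blue to a like degree on both TET1 siRNA arrays, while DDIT4 and ANKRD37 change colour between them.

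Replicates of the TET1 siRNA group differed among themselves in a few targets. TET1 siRNA replicate 2 was below replicate 1 in 27 of the 45 members, against 49.9% of all genes tested. All 4 tested targets in stress and growth control and 13 of the 17 core enzymes were among them, and 1 of 6 of the targets in mitochondria and glycolytic control. For BNIP3L the deviations of the single TET1 siRNA arrays from the control mean were -1.27 and -1.21, for PDK1 -0.65 and -0.56 and for BNIP3 -0.37 and -0.44. For ENO2 they were -0.27 and -0.63, and for ADM -0.20 and -0.43. The first set of genes thus repeated closely between arrays, and the second did not.

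Several members have more than 1 probe set above the filter. Tested one by one, 20 of the 96 member probe sets above the filter were lower and 1 was higher, where 8.31% and 7.76% of all 27306 probe sets tested were. PGK1, the phosphoglycerate kinase gene, gave different answers by probe set. Its brightest probe set read 6555.9 and 5873 with TET1 siRNA and 6986.4 and 6585.7 with control siRNA and did not pass (-0.13, limma adjusted p = 0.209 in the test by gene). Of its 5 others above the filter 4 fell. The next brightest read 3948.6 and 3795.2 against 4574.7 and 4653.1 (-0.25, limma adjusted p = 0.0153) and the one after it 1861.7 and 1636.8 against 2374 and 2253.9 (-0.40, limma adjusted p = 0.00504). The one ranked below these in brightness read 836.7 and 665 against 1177.5 and 1089.9 (-0.59, limma adjusted p = 0.00312), and the dimmest 32 and 12.5 against 43.3 and 62.1 (-0.88, limma adjusted p = 0.0441). With the mean of all probe sets PGK1 was lower by 0.38 (limma adjusted p = 0.0229), so the count of enzymes that fell depends on which probe set stands for this gene. For ERO1A the dimmest of its probe sets fell (532.2 and 490.5 against 679.7 and 645.4, -0.36, limma adjusted p = 0.0148), and the others did not pass. ARNT fell in 1 of 5 probe sets above the filter (33.6 and 21.2 against 53.1 and 54.1, -0.70, limma adjusted p = 0.0395). The ratio of 3′ to 5′ control probe sets for ACTB, a sign of RNA quality, was 1.28 and 1.26 on the TET1 siRNA arrays and 1.21 and 1.19 on the control siRNA arrays, so the groups did not overlap. For GAPDH it was 0.884 and 0.858 against 0.858 and 0.846. The part of RNA quality in these differences was not tested. The probe sets of one gene share that gene, and which transcript each one reads was not tested.

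Further HIF targets, 51 genes in a separate list, were as often lower as higher. Of 42 tested, 4 fell and 4 rose (9.52% each), close to the 10.6% and 11.2% of all genes tested, with a median log2 difference of -0.03. The mitochondrial adenylate kinase gene AK4 read 468.8 and 480.7 with TET1 siRNA and 770.4 and 823.1 with control siRNA and fell by 0.73 (limma adjusted p = 1.05e-04), with 3 of 4 probe sets lower when tested singly. KDM4B, a histone demethylase, fell by 0.49, and HILPDA, a lipid droplet protein, by 0.47. HMOX1, heme oxygenase, which NRF2 also induces, read 211.8 and 226.3 against 108.2 and 138.6 and rose by 0.76 (limma adjusted p = 0.00186). CCNG2 rose by 0.54 and MAFF by 0.42. Taken singly, 1 of 4 probe sets of CCNG2 passed, 1 of 5 of KDM4B, and 1 of 2 of HILPDA and of MAFF.

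Regulators of HIF outside the members, 19 genes, had 5 rises and 2 falls among 17 tested (29.4% and 11.8%, against 11.2% and 10.6% of all genes tested), with a median of 0.06. COPS5, a subunit of the COP9 signalosome, read 1921.6 and 1845.9 with TET1 siRNA and 1331.1 and 1345.9 with control siRNA and rose by 0.49 (limma adjusted p = 3.97e-04). RBX1 (0.40) and ELOB (0.39), which are subunits of the VHL ubiquitin ligase, and the deubiquitinase gene USP33 (0.28) also rose, as did the partner of ELOB, ELOC (0.21), named after its value was seen. Tested singly, neither probe set of ELOC passed, and 1 of 2 did for ELOB and 1 of 3 for USP33. CUL2, the scaffold of the same ligase, had 373.2 and 346.2 against 385.3 and 308, which overlap; it too was named after its values were seen. SIAH2, a ubiquitin ligase that targets prolyl hydroxylases, fell by 0.45, and the chaperone gene HSP90AA1 fell by 0.36, in 4 of 4 probe sets.

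In the list of 65 other genes of glycolysis, pyruvate and glycogen, 43 were tested, of which 7 rose and 4 fell (16.3% and 9.30%, against 11.2% and 10.6% of all genes tested), with a median of 0.05. MPC1 and MPC2 encode the carrier that brings pyruvate into mitochondria. MPC1 read 311.4 and 324.9 with TET1 siRNA and 182.5 and 207.7 with control siRNA and rose by 0.66 (limma adjusted p = 0.00113). For MPC2, 1 of 2 probe sets passed when tested singly; the gene read 870.8 and 865.3 against 710.2 and 620.8 and rose by 0.38 (limma adjusted p = 0.00814). PDHX, a component of the pyruvate dehydrogenase complex, rose by 0.41 (limma adjusted p = 0.00282). DLAT and DLD, named after their values were seen, encode further components of that complex and rose by 0.37 and 0.28, while 1 dim probe set of DLD fell. The genes of its first enzyme did not pass: PDHA1 read 762.4 and 862.9 against 932.9 and 958, and PDHB 1868.5 and 1680.6 against 1611.7 and 1573.7 (both named after their values were seen). PDK1, the kinase that inactivates the complex, fell, as given above. The further kinase genes PDK2 (0.16) and PDK4 (0.0010) and the phosphatase gene PDP1 (-0.13) did not pass. GPD2 (-0.37, 1 of 3 probe sets when tested singly) and PYGL (-0.34) fell, and MDH1 (0.34) rose. These genes too were named after their values were seen. Activity of the complex was not measured. TIGAR, a phosphatase that p53 induces and that lowers fructose 2,6-bisphosphate, read 527.1 and 536 against 342.2 and 354.2 and rose by 0.59 (limma adjusted p = 6.30e-04). BPGM, the bisphosphoglycerate mutase, read 51 and 57.7 with TET1 siRNA and 131.2 and 139.2 with control siRNA and fell by 1.10 (limma adjusted p = 3.23e-04). RPIA, of the pentose phosphate pathway, read 539.6 and 524.6 against 889.6 and 728.5 and fell by 0.58 (limma adjusted p = 0.00146).

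**Figure D4:**
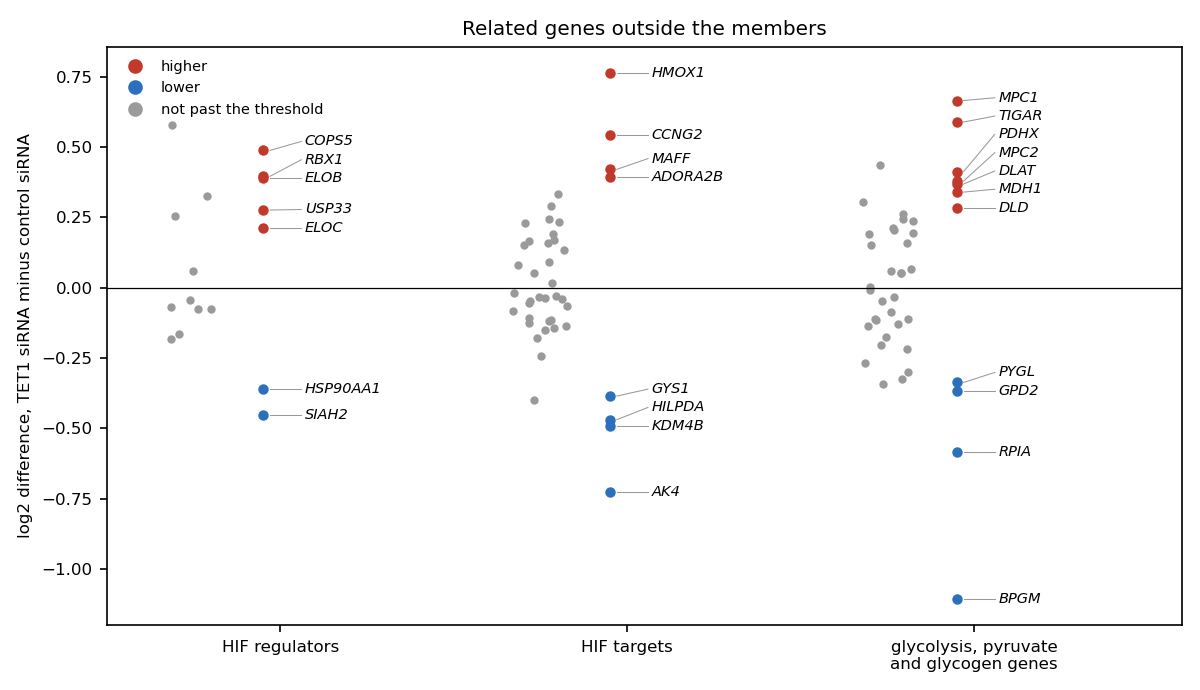
Log2 difference, TET1 siRNA minus control siRNA, of the tested genes in 3 lists outside the members, with the genes past the threshold named and the others as grey points. Among further HIF targets 4 of 42 rose and 4 fell, among regulators 5 of 17 rose and 2 fell, and among glycolysis, pyruvate and glycogen genes 7 of 43 rose and 4 fell, with BPGM at -1.10.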

How the data were processed

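The authors deposited 1 linear intensity per probe set and sample. Per the labels' protocols, reverse transcription used a primer ending in a run of T, and biotin-labelled cRNA was made from the cDNA. The deposited columns share 1 trimmed mean (2% removed from each end), as globally scaled arrays do. The software and the background step are, for the sources used here, not given. A global scaling hides a change in total mRNA. The number of arrays limits the precision.

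Signals were transformed to log2(signal + 16), and 62 of the 54675 probe sets, being controls, were not fitted. The platform annotation gave 1 gene symbol for 41091, several for 1801 and none for 11721, and symbols were updated through RefSeq (GRCh38.p14) for 41037. A gene was read by its probe set of highest mean, and 12389 of 19775 genes, above the median of all probe sets (a log2 value of 4.86, a signal of 13.1), were tested with limma 3.58.1 in R 4.3.3 (lmFit, eBayes with a variance trend, two-sided, Benjamini-Hochberg, threshold 0.05). Residual degrees of freedom were 2 and prior ones 9.38. The smallest p of an exact permutation test of 2 against 2 is 0.333, hence the p-values depend on limma's pooling of variance across genes. Single probe sets were tested in the same way over 27306. The scripts were tested on simulated data.

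The members and lists were chosen with earlier results of these data known. Every member may be named; of each other list, up to 6 genes past the threshold are named by size of difference, and any further gene is said to have been named after its value was seen. The alternatives changed the normalization (quantile, median centring), the pseudocount (1, 64), the variance model, the filter, the choice of probe set and the arrays included, or added a replicate block. Figures were drawn with matplotlib 3.10.9.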

Additional observations from a re-analysis of the deposited data

How the results depend on the processing

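BNIP3L was lower and past the threshold in 14 of 14 moderated alternatives (-1.27 to -0.86, limma adjusted p 9.20e-07 to 0.0181), and TET1 in 13 of 13 (-1.92 to -0.64, limma adjusted p 7.88e-04 to 0.017). Of the 13 called members no other held its call in all; BNIP3 and MXI1 lost it with no variance trend alone (limma adjusted p = 0.0701 and 0.0722), PDK1 with the mean of all probe sets alone (-0.34, limma adjusted p = 0.0614), and ANGPTL4 with no variance trend and with no filter (limma adjusted p = 0.115 and 0.0684). The loss with no variance trend was shared by EPAS1, PFKFB4, ADM, P4HA2, PLOD1, SLC2A3, GPI and ENO2 (limma adjusted p 0.0676 to 0.187), and that with no filter by EPAS1, PFKFB4, ADM, PLOD1, GPI and ENO2 (0.0732 to 0.115). Median centring ended the calls of ADM, PLOD1, GPI and ENO2 (0.0554 to 0.101), the mean of all probe sets those of EPAS1, PFKFB4, ADM and PLOD1 (0.0507 to 0.731), quantile normalization that of EPAS1 (0.0605) and leaving out _x_at and _s_at probe sets that of PLOD1 (0.0564). No called member changed sign. The upper-quartile filter gave no value for TET1, nor did leaving out _x_at and _s_at probe sets for ANGPTL4, SLC2A3 and GPI. Of the 32 tested members that did not pass, 14 changed sign in some alternative, and DDIT4, P4HA1, ALDOC and PGK1 passed in some.

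Median centring left 7 members lower, 0 core enzymes (2 at unadjusted p below 0.05) and medians of -0.198 for HIF targets and -0.0168 for core enzymes. With no variance trend 0 members were higher and 2 lower, with 2 HIF targets and 0 core enzymes among the lower, and 437 and 535 of all genes were higher and lower. Without moderation limma has 2 residual degrees of freedom and called 0 genes, 0 members, 0 HIF targets and 0 core enzymes in either direction (1410 genes higher and 1261 lower at unadjusted p below 0.05, of members 1 and 8); the p of TET1, at -1.28, then missed the threshold (limma adjusted p = 0.0999). With no filter 899 and 847 genes, 0 and 6 members, 5 HIF targets and 0 core enzymes were called. With the mean of all probe sets 772 genes and 1 member were higher, and 4 HIF targets lower. Without _x_at and _s_at probe sets 882 genes and 1 member were higher, and the HIF median was -0.39 over 12 targets. With a fold of 1.5 or more, 425 and 532 genes and 1 and 2 members passed. Quantile normalization left 1 member higher, and each probe set tested by itself gave 1 higher and 20 lower. When arrays were left out in turn, 813 to 1157 genes were higher and 879 to 983 lower, 1 to 1 members higher and 4 to 9 lower, 4 to 7 HIF targets and 0 to 2 core enzymes lower, with medians of -0.261 to -0.205 and -0.0825 to -0.0467. There, the lone array of a group takes its spread from the other group.

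The labels give both groups replicate numbers 1 and 2. Deviations of same-numbered arrays correlated at 0.00583 over genes, so the numbers show no pairing. With the replicate block 1442 genes were higher and 1348 lower, and 2 members were higher and 11 lower.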
